A study of Xenopus tropicalis with 3 samples.

Results

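The septin genes of Xenopus tropicalis were followed through the first steps of epidermis formation in animal caps. A gene was counted as a septin when its name in the expression table was a septin number, which the table writes as a date (7-Sep for septin7), and the selenoprotein gene written as 15-Sep was left out. This gave 11 genes of 17647, with 34 transcripts of 35047 transcript rows. By RefSeq accession, ignoring the version, 30 of the 34 transcripts matched a gene of the RefSeq gene table for assembly UCB_Xtro_10.0, and all 30 matched the septin of the same number. The genes were septin2 to septin12 (2-Sep to 12-Sep), and they are named here by those RefSeq symbols. A further gene with a septin name, sept2-a, falls outside the counting rule and is described apart.

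Animal caps are the dissected roof of the embryo, the prospective epidermis, which becomes a skin of mucus-secreting, ion-transporting and multiciliated cells. The caps were labelled by stage, with a gastrula stage (NF10.5), a neurula stage (NF16) and a tailbud stage (NF24). These stage titles do not say at what age the caps were cut from the embryo. Names such as neurula caps refer here to the label alone. The labels give 3 biological replicates per stage, no other treatment and no strain. Total RNA was sequenced after removal of ribosomal RNA. The table holds 1 FPKM value (fragments scaled to transcript length and library size) per transcript and stage, which is the authors' mean, so the values carry no error, no test between stages was possible, and no order of levels has a spread behind it.

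Septins are GTP-binding cytoskeletal proteins that join into rod-shaped complexes and then into filaments and rings at the cell cortex. They are sorted into groups by sequence, and in mammals a complex is built from a member of the SEPT2 group, a member of the SEPT6 group and SEPT7, with a SEPT3 group member such as SEPT9 added in the longer form. Members of a group can often take each other's place. Septins act in cytokinesis, in epithelial shape and at the base of cilia, and in Xenopus laevis embryos septins have been tied to planar cell polarity and ciliogenesis. The grouping used here is that of the human paralogs of the same number.

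All 8 epidermal markers had at least 1 FPKM at every stage, and their summed level was 2218 FPKM at NF10.5, 35116 FPKM at NF16 and 34700 FPKM at NF24. Markers of multiciliated cells summed to 93.8, 2996 and 2197 FPKM over 8 genes in the same order. The later sums were mostly the tubulin gene tuba1a, with 14.4, 2287 and 1545 FPKM. Of the others, tekt1, tekt2, spag6 and dnah9 had higher values at NF24 than at NF16, and foxj1, mcidas and ccno lower ones. Markers of other tissues were present as well. The 5 mesoderm and muscle markers in the table summed to 2.22, 226 and 328 FPKM, the 8 neural markers to 224, 56.7 and 56.2 FPKM, the 5 endoderm markers to 99.2, 9.99 and 7.95 FPKM, and the 3 germ line markers in the table to 31.8, 16.7 and 7.19 FPKM. The neural sum at NF10.5 was mostly sox2, with 199, 37.3 and 22.1 FPKM. In whole tissue, fewer cells of a type and less RNA per cell cannot be told apart.

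The septin family was expressed at every stage, with a make-up that differed between stages. The summed level of the 11 genes was 408 FPKM at NF10.5, 479 FPKM at NF16 and 558 FPKM at NF24, which was 0.0705%, 0.0902% and 0.11% of all FPKM in the table. Levels in FPKM are per length and were compared between genes on that scale. At NF10.5 septin7 led with 134 FPKM, followed by septin10 with 87.2 FPKM, septin2 with 85.0 FPKM, septin11 with 45.6 FPKM and septin6 with 32.4 FPKM. At NF16 the order was septin10 with 156 FPKM, septin7 with 148 FPKM, septin8 with 75.4 FPKM, septin2 with 39.6 FPKM and septin12 with 21.0 FPKM. At NF24 septin7 had 176 FPKM, septin10 154 FPKM, septin8 91.4 FPKM, septin2 52.4 FPKM and septin12 44.6 FPKM. Thus septin7 and septin10 held the upper places at all stages, whereas septin8 and septin12 were among the first 5 from NF16 onward and septin11 and septin6 were so at NF10.5 alone.

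**Figure D1:**
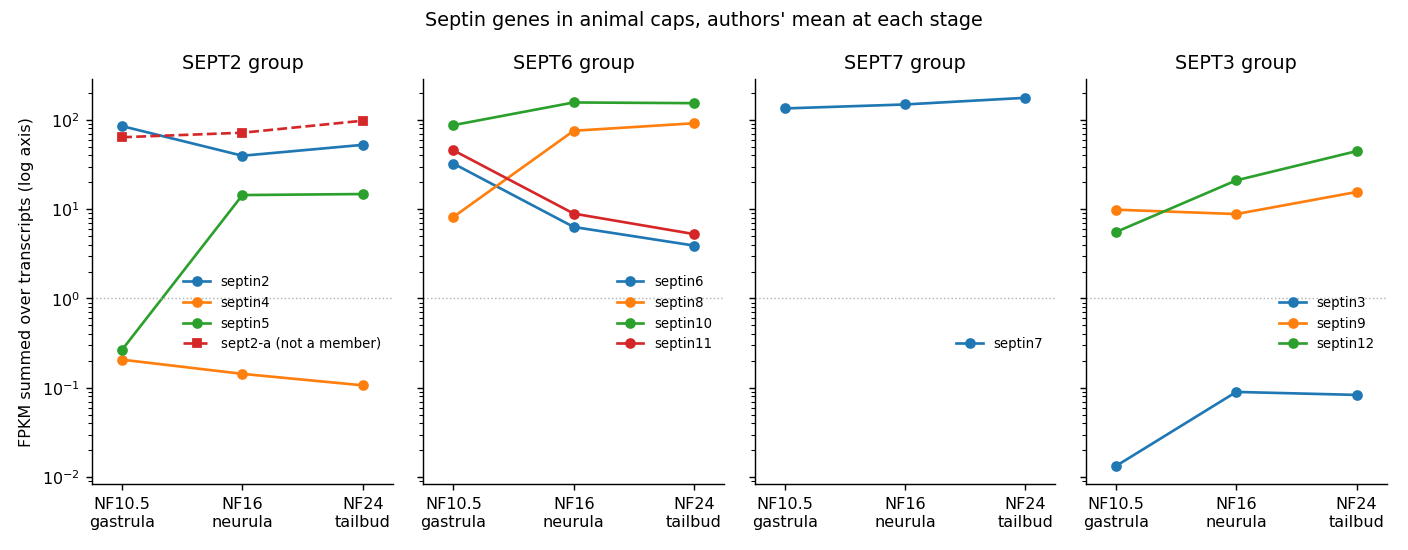
FPKM summed over transcripts (log axis) of each septin gene at the 3 stages, in 1 panel per septin group; each point is the authors' mean, and the dotted line marks 1 FPKM. In the SEPT6 group the lines of septin8 and of septin6 and septin11 cross between NF10.5 and NF16, septin7 runs nearly level, and septin3 and septin4 lie below 1 FPKM throughout.

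Of the 11 genes, 9 reached 1 FPKM in at least 1 stage and were compared with the 11771 genes of the table that did so. The comparison used the difference of log2(FPKM + 1), later minus earlier, and a gene was called higher or lower when this difference was at least 1 in size, a ratio of 2 after the addition of 1. From NF10.5 to NF16, 3 septins were called higher (septin5, septin8 and septin12), 3 lower (septin2, septin6 and septin11) and 3 neither way. Among all genes compared, 59.9% were called, 20.9% higher and 39.0% lower, so a share of 6 in 9 is close to the background. The median difference was 0.15 for the septins and -0.57 for all genes. From NF16 to NF24, 1 septin was called higher (septin12) and 0 lower, against 11.7% of all genes called, 6.91% higher and 4.84% lower. The septin median of this step was 0.25 and the median of all genes 0.12. Between NF10.5 and NF24, 3 septins were called higher (septin5, septin8 and septin12) and 2 lower (septin6 and septin11), against 62.2% of all genes called, 25.4% higher and 36.9% lower.

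Scaling alters how the calls divide. The median of all genes moved with median-of-ratios scaling by 0.54 in the first step and by -0.12 in the second. With it, 3279 genes were higher and 2854 lower in the first step, in place of 2466 and 4586, and 633 and 785 in the second, in place of 813 and 570. Between NF10.5 and NF24 it gave 3624 higher and 3103 lower, in place of 2984 and 4342. Quantile normalization moved the median by 0.33 in the first step and gave 641 higher and 790 lower in the second. TPM, in which every stage is rescaled to the same total, moved the median by 0.08 in the second step. Both counts rose with it, to 1227 genes higher and 626 lower. TPM values are larger than the deposited ones, so the added constant of 1 also weighs less in them. Under median-of-ratios scaling the septins called in the first step were 4 higher and 2 lower, with septin10 added and septin2 lost, and 0 were called in the second.

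**Figure D2:**
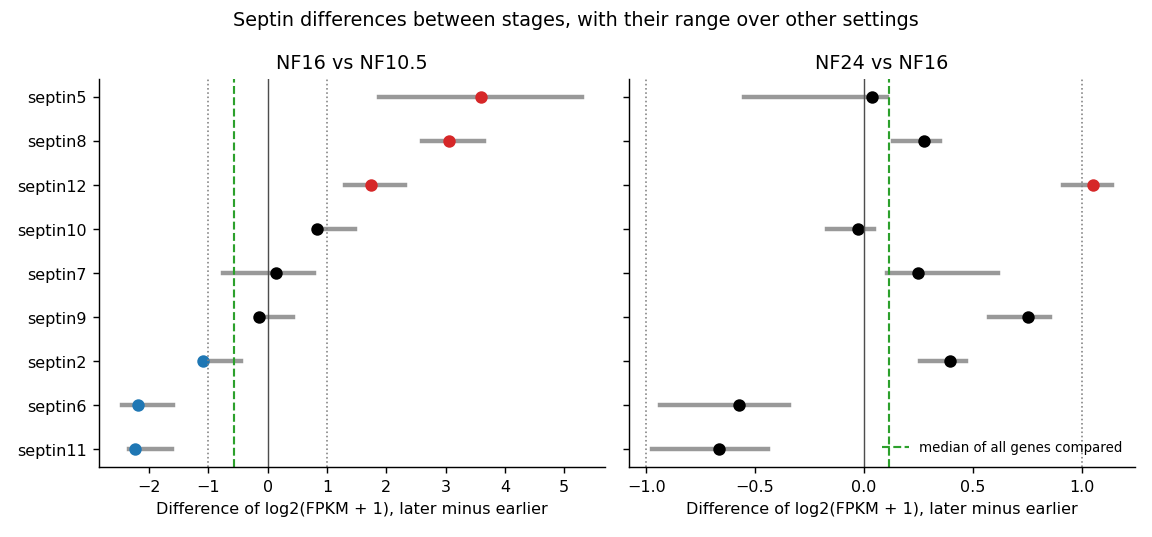
Difference of log2(FPKM + 1) of the 9 septins compared, for NF16 against NF10.5 and for NF24 against NF16 (the panels have different scales). Points are the values as deposited (red higher, blue lower, black not called), grey bars span the values over all settings tried, dotted lines mark the calling limits and the dashed line the median of all genes compared. The first step spreads from -2.23 for septin11 to 3.60 for septin5, and in the second step septin12 alone passes the limit.

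In the SEPT6 group septin8 was called higher and septin6 and septin11 lower between gastrula and neurula, while septin10 led at all stages. Of all genes compared, 59.9% were called in that step. Whether 1 member takes the place of another was not tested. SEPT6-type septins occupy the position between the SEPT2-type and SEPT7 subunits in the mammalian complex. The level of septin8 (8-Sep) was 8.17 FPKM at NF10.5, 75.4 FPKM at NF16 and 91.4 FPKM at NF24, all from the single transcript in the table. It was low at NF10.5 and high at both later stages, with a ratio of 9.22 and a log2 difference of 3.06 in the first step and 0.28 in the second. Septin10 (10-Sep), the most abundant gene of the group, had 87.2, 156 and 154 FPKM. Its log2 difference of 0.84 in the first step was below the limit, and it was 1.47 when median-of-ratios scaling was used and 1.11 after quantile normalization.

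The other members of the group went the opposite way. The level of septin11 (11-Sep) was 45.6 FPKM at NF10.5, 8.92 FPKM at NF16 and 5.26 FPKM at NF24. That of septin6 (6-Sep) was 32.4, 6.32 and 3.91 FPKM. Both were high at NF10.5 and low afterwards, with log2 differences of -2.23 and -2.19 in the first step and -0.66 and -0.58 in the second, and ratios of NF10.5 to NF24 of 8.67 for septin11 and 8.28 for septin6. RefSeq lists sept6 as an older name of septin11, and in the table the 2 genes are separate, with different transcripts.

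Septin6 and septin11 together made up 44.98% of the group's FPKM in gastrula, 6.17% in neurula and 3.61% in tailbud caps. Septin8 held 4.72%, 30.5% and 36.0% of it, and septin10 50.3%, 63.3% and 60.4%. The level of the whole group was 173 FPKM at NF10.5, 247 FPKM at NF16 and 254 FPKM at NF24, a log2 difference of 0.51 in the first step, which was smaller in size than that of any of its 4 members.

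**Figure D3:**
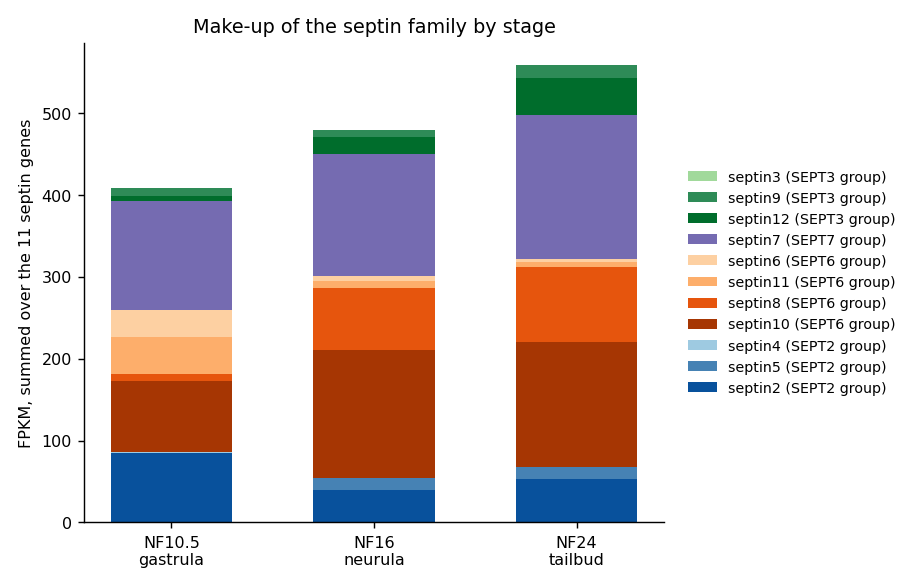
FPKM of the 11 septin genes stacked at each stage, coloured by septin group (blue SEPT2, orange SEPT6, purple SEPT7, green SEPT3). The total goes from 408 to 558 FPKM; septin6 and septin11 are wide bands at NF10.5 and thin ones later, while septin8 and septin12 widen.

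In the SEPT2 group, septin2 (2-Sep) made up 99.4% of the FPKM of the counted members at NF10.5, and 56.9% when sept2-a was counted too. Its level was 85.0 FPKM at NF10.5, 39.6 FPKM at NF16 and 52.4 FPKM at NF24. The lowest value was at NF16, with a log2 difference of -1.08 in the first step and 0.40 in the second. The call of the first step did not hold with TPM (-0.97), quantile normalization (-0.61), median-of-ratios scaling (-0.46) or the highest transcript alone (-0.92). Relative to the median of all genes the difference was -0.52.

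Septin5 (5-Sep), which in mammals is abundant in brain and acts in vesicle release, was nearly absent at first. Its level was 0.267 FPKM at NF10.5, 14.4 FPKM at NF16 and 14.8 FPKM at NF24, with a log2 difference of 3.60 in the first step and 0.04 in the second. Because the first value is so low, the size of the first difference depends on the added constant, with 1.88 for a constant of 5 and 5.30 for a constant of 0.1. It held 0.312% of the FPKM of the group's counted members in gastrula, 26.6% in neurula and 21.9% in tailbud caps, and 0.179%, 11.4% and 8.95% with sept2-a counted too. The synaptic gene snap25, a neuronal marker, had 0.03, 0.45 and 1.35 FPKM and was not called in the first step. Of the 8 neural markers 2 were called higher in it, ncam1 (0.35, 4.06 and 5.23 FPKM) and tubb2b (2.33, 6.50 and 16.4 FPKM). Another 2 were called lower, sox2 (199, 37.3 and 22.1 FPKM) and elavl3 (19.1, 6.45 and 5.37 FPKM). Of all genes compared, 20.9% were higher and 39.0% lower in that step, so these counts are no result about the markers. Between NF10.5 and NF24, 5 of the 8 neural markers were called higher and 2 lower, with a median difference of 1.14. Of all genes, 25.4% were higher and 36.9% lower in that comparison, with a median of -0.44. The part of neural cells in the septin5 values was not tested. Septin4 (4-Sep), known in mammals for its role in the sperm tail, had 0.207, 0.143 and 0.107 FPKM, and 1 of its 2 transcripts was listed at 0 at all stages.

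The gene sept2-a, whose name places it in this group, directly adjoins septin5 in the RefSeq table, with 0 genes listed between them. Its level was 63.8 FPKM at NF10.5, 71.7 FPKM at NF16 and 97.7 FPKM at NF24, which exceeded septin2 at the later stages and not at NF10.5. Its log2 differences were 0.17 and 0.44, below the limit in both steps. Together septin2 and sept2-a had 149 FPKM at NF10.5, 111 FPKM at NF16 and 150 FPKM at NF24. RefSeq lists sept2-a as a former name of septin2 too, and whether the 2 genes share reads cannot be checked from FPKM.

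Septin7 is the single member of its group and a part of every common mammalian complex. Its summed level was 134 FPKM at NF10.5, 148 FPKM at NF16 and 176 FPKM at NF24, with log2 differences of 0.15 and 0.25. The first was 0.78 under median-of-ratios scaling and turned to -0.75 when only the highest transcript of each stage was used. The gene lay above 93.9%, 95.3% and 96.0% of the genes compared at these stages. Its share of the family's FPKM was 32.8%, 31.0% and 31.6%.

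Within this sum the estimated levels of the septin7 transcripts changed places. How reads shared by transcripts of a gene were divided cannot be checked from FPKM, here or for the other septins. The transcript sequences were not compared. Transcript XM_002939413.4 had 105 FPKM at NF10.5, 55.4 FPKM at NF16 and 40.7 FPKM at NF24. Transcript XM_004915343.3 had 3.74, 61.9 and 95.5 FPKM in the same order, a log2 difference of 3.73 in the first step. The first was thus the leading form at NF10.5 and the second at both later stages. In shares of the gene, XM_002939413.4 made up 78.0%, 37.3% and 23.1%, and XM_004915343.3 made up 2.79%, 41.7% and 54.2%. XM_004915342.3 stayed between 19.0% and 22.3%, and XM_004915344.3 between 0.239% and 1.23%. A switch was defined, with these data already seen, as a change of leading transcript, in a gene at 10 FPKM or more in each of the stages, in which each of the 2 leaders gains or loses at least 30 percentage points. By this definition septin7 switched between NF10.5 and NF16, with a gain of 38.9 points for XM_004915343.3, as did 5.17% of the 2283 genes that could be judged. From NF16 to NF24, 0.331% of genes switched and no septin among them. Between NF10.5 and NF24, 6.6% of genes switched, septin7 among them. Of the other septins only septin2 and septin10 could be judged in the first step, and each kept its leading transcript.

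**Figure D4:**
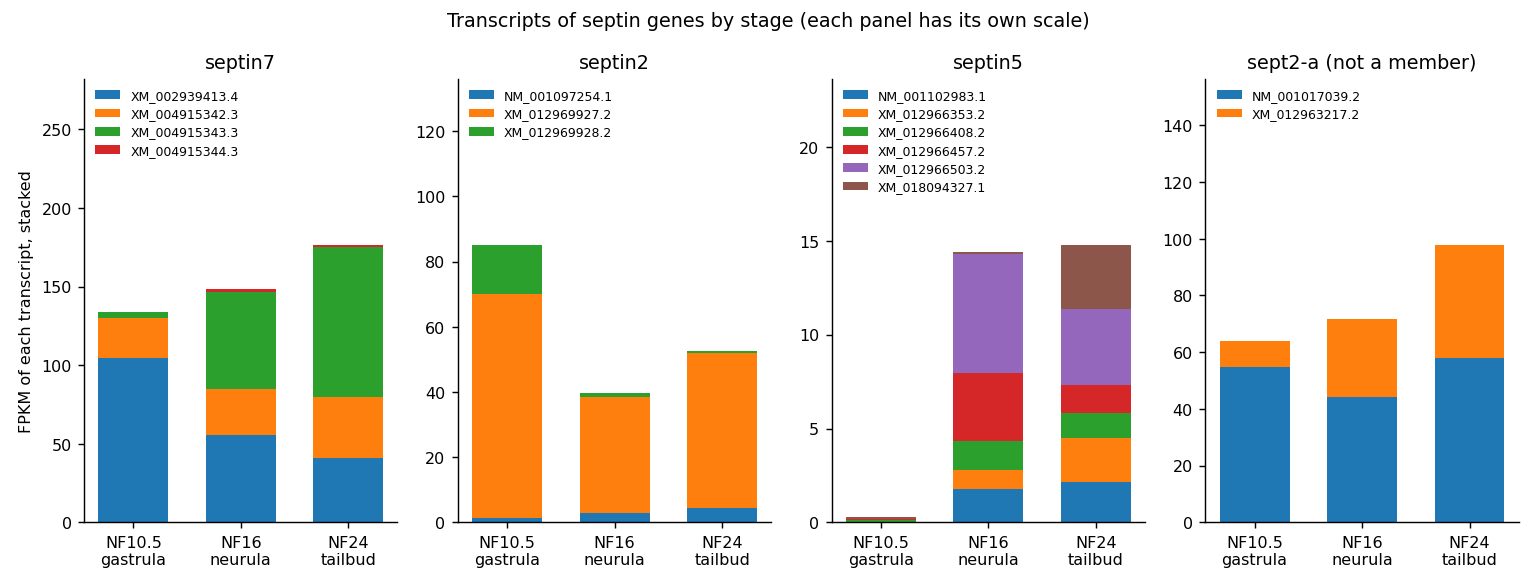
FPKM of each transcript, stacked, for septin7, septin2, septin5 and the separately described sept2-a at the 3 stages; each panel has its own scale. In septin7 the share of XM_004915343.3 goes from 2.79% to 54.2% while the height of the bar changes little, and in septin5 no transcript is above 0.1 FPKM at NF10.5.

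Transcripts of the other genes differed in how evenly they changed. In septin2 the leading XM_012969927.2 had 68.7, 35.8 and 47.6 FPKM, while XM_012969928.2 went from 14.9 FPKM at NF10.5 to 0.993 and 0.33 FPKM, and NM_001097254.1 from 1.45 FPKM to 2.86 and 4.55 FPKM. Both more abundant forms of NF10.5 were thus lower at NF16, and the later rise of XM_012969927.2 was not seen in XM_012969928.2. In sept2-a the form XM_012963217.2 had 9.14, 27.5 and 39.7 FPKM, and its share of the gene was 14.3%, 38.4% and 40.6%. The form NM_001017039.2 led at all stages with 54.6, 44.2 and 58.0 FPKM. In septin5 the 6 transcripts each had 0.0967 FPKM or less at NF10.5. At NF16 XM_012966503.2 led with 6.36 FPKM, and at NF24 it had 4.01 FPKM. XM_018094327.1 had 0.0633 FPKM at NF16 and 3.41 FPKM at NF24, a gain of 22.6 points of share within an almost unchanged gene sum. In septin6 the leader XM_004916877.3 had 30.9, 4.84 and 2.05 FPKM, and its other 4 transcripts stayed at or below 1.06 FPKM. Septin11 kept NM_001142898.1 as its leader, with 37.5, 7.67 and 4.18 FPKM and a lowest share of 79.5%. Septin10 kept NM_001011111.2, with 80.8, 149 and 143 FPKM and a lowest share of 92.6%.

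The SEPT3 group was the least abundant. It had 15.4 FPKM at NF10.5, 29.9 FPKM at NF16 and 60.2 FPKM at NF24, or 3.78%, 6.24% and 10.8% of the family, and its log2 difference of 1.90 between NF10.5 and NF24 compared with -0.34 for the SEPT2 group (0.14 with sept2-a), 0.55 for the SEPT6 and 0.39 for the SEPT7 group. Septin12 (12-Sep), a septin known in mammals from sperm, held 35.9%, 70.2% and 74.0% of the group. Its level was 5.54 FPKM at NF10.5, 21.0 FPKM at NF16 and 44.6 FPKM at NF24. It was higher at each later stage, with log2 differences of 1.75 and 1.05, and it was the sole septin called in both steps. The second call was lost with a constant of 5 (0.93), median-of-ratios scaling (0.92) and quantile normalization (0.94). RefSeq gives sept3 as an older name of septin12.

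Septin9 (9-Sep), the ubiquitous member of the group in mammals, had 9.87, 8.81 and 15.6 FPKM. Its log2 difference was -0.15 in the first step, which turned to 0.43 under median-of-ratios scaling, and 0.76 in the second. At NF10.5 septin9 was above septin12, and at both later stages septin12 was above septin9. Of the 5 septin9 transcripts, 2 were listed at 0 at all stages and XM_012952825.2 carried 89.3%, 91.0% and 89.4% of the gene. Septin3 (3-Sep), a brain septin in mammals, had 0.0133, 0.09 and 0.0833 FPKM. Septin3 and septin4 were thus below 1 FPKM at all stages and entered no comparison.

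Set by the subunits of the mammalian complex, the SEPT2, SEPT6 and SEPT7 groups had 85.5, 173 and 134 FPKM in gastrula caps. In neurula caps they had 54.1, 247 and 148 FPKM, and in tailbud caps 67.3, 254 and 176 FPKM. With sept2-a counted in it, the SEPT2 group had 149, 126 and 165 FPKM at the 3 stages. The SEPT6 group was the most abundant at each stage under either count. These are sums of RNA, grouped by the number of the human paralog, and protein levels were not measured.

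Markers of several cell types were called in the same step as these septins, and neural markers went both ways. In the first step, in which septin5, septin8 and septin12 were called higher, 7 of 8 multiciliated cell markers, 4 of 4 ionocyte markers, 5 of 5 goblet and small secretory markers, 6 of 8 epidermal markers and 5 of 5 mesoderm and muscle markers in the table were also called higher. None of these markers was listed at 0 at all stages, and the troponin gene tnnc1 was at 0 FPKM at NF10.5. In the same step, in which septin6, septin11 and septin2 were called lower, 4 of 5 endoderm and 1 of 3 germ line markers were called lower. Of the 8 neural markers, 2 were called higher and 2 lower. Of all genes compared, 20.9% were higher and 39.0% lower in this step, so the germ line count is close to the background. The part of any cell type in the septin values was not tested.

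Genes that work with septins were described from lists chosen with earlier results of these data known. Septins assemble at the cleavage furrow with anillin and the contractile ring. Of 16 cytokinesis genes, 12 were called lower and 0 higher from NF10.5 to NF16, against 39.0% and 20.9% of all genes, and the median log2 difference was -1.54 where that of all genes was -0.57. Under median-of-ratios scaling 6 were lower and 1 higher, with a median of -0.91. Of the 11771 genes compared, 2854 were lower and 3279 higher under that scaling, with a median of -0.03. The gene of anillin itself, anln, which binds septins directly, had 60.7, 51.5 and 73.5 FPKM and was not called. The largest differences were in the chromosomal passenger genes birc5.1 (163 FPKM in gastrula and 4.72 FPKM in neurula caps) and cdca8 (181 and 37.2 FPKM) and the kinesin kif20a (193 and 39.0 FPKM). The guanine exchange factor ect2, which activates RhoA at the furrow, had 21.7, 6.36 and 21.0 FPKM. It was the one gene of the list called higher from NF16 to NF24, while birc5.1 was called lower. Of all genes, 6.91% were higher and 4.84% lower in that step, so these counts are close to the background.

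Cdc42 and its Borg effectors, encoded by the cdc42ep genes, control septin assembly. The Cdc42 and Borg list also held cdc42se and cdc42bp genes, which are not Borg genes. Of 9 genes of this list compared, 2 were called higher and 3 lower in the first step (median -0.43), shares close to the 20.9% and 39.0% of all genes. The Borg gene cdc42ep3 had 0.21, 6.89 and 9.14 FPKM, and cdc42ep2 had 47.0, 22.9 and 33.8 FPKM, the latter just past the limit in the first step. The small effector genes cdc42se1 and cdc42se2 had 0.01, 1.04 and 10.2 FPKM, and 68.3, 12.4 and 11.3 FPKM. From NF16 to NF24 cdc42se1 was called higher and 0 genes of the list lower, against 6.91% and 4.84% of all genes. The kinase gene cdc42bpb (51.3 and 15.6 FPKM) was the third gene called lower in the first step, and cdc42 itself had 258, 352 and 325 FPKM.

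Cortical actomyosin genes, whose filaments septins bundle and curve, showed 8 of 15 higher and 3 lower in the first step (median 1.301), where 20.9% of all genes were higher and 39.0% lower. With median-of-ratios scaling or quantile normalization 10 were higher and 1 lower. Of the 11771 genes compared, 3279 were higher and 2854 lower with the former, and 2760 and 3494 with the latter. In the second step 1 was higher and 0 lower (median 0.26), against 6.91% and 4.84% of all genes. With TPM 3 were higher in that step, as were 1227 of the 11771 genes compared. The regulatory light chain gene myl9 had 3.92, 51.1 and 201 FPKM, and it was the one called in the second step. The actins actg1 and actb had 863, 7748 and 9314 FPKM, and 436, 2533 and 3050 FPKM. The formin gene diaph3 (10.4 and 1.51 FPKM in gastrula and neurula caps) and the membrane linkers rdx (26.9 and 8.35 FPKM) and msn (33.9 and 14.6 FPKM) were called lower. Near-identical actin genes share reads, so the values of single actins are uncertain.

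Septins have been placed at the base of cilia, next to the transition zone and the planar polarity effectors. Of 15 transition zone genes, 5 were called higher and 3 lower in the first step (median 0.20), against 20.9% and 39.0% of all genes. With median-of-ratios scaling or quantile normalization 6 were higher and 1 lower. Of the 11771 genes compared, 3279 were higher and 2854 lower with the former, and 2760 and 3494 with the latter. In the second step 0 transition zone genes were higher and 1 lower (median -0.32), against 6.91% and 4.84% of all genes. The number lower was 2 and 3 with these scalings, where 785 and 790 of all genes compared were lower. The membrane proteins tmem237 (3.29, 23.1 and 9.79 FPKM) and tmem17 (4.50, 24.9 and 19.7 FPKM) and the Joubert syndrome gene ahi1 (9.69, 29.9 and 17.8 FPKM) led those higher, and tmem237 was the gene called lower in the second step. The genes called lower in the first step included nphp4 (13.0 and 1.34 FPKM) and tmem67 (13.8 and 5.27 FPKM). Of the planar polarity effectors fuz, intu and wdpcp, 0 of 3 were called in either step. In the first step 2 of the 3 were called higher with median-of-ratios scaling or quantile normalization, and 1 with TPM. With TPM 2829 of the 11771 genes compared were higher in that step. Their levels were 9.03, 18.1 and 12.5 FPKM for fuz, 6.62, 12.3 and 7.0 FPKM for intu, and 6.51, 5.40 and 5.74 FPKM for wdpcp.

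The comparison of NF10.5 with NF24 shares its stages with the steps above. In it, 0 of 16 cytokinesis genes were higher and 9 lower, and 9 of 15 actomyosin genes higher and 3 lower. In the transition zone list 2 genes were higher and 4 lower. In the Cdc42 and Borg list 2 genes were higher and 2 lower, and of these only cdc42ep3 is a Borg gene. Of all genes, 25.4% were higher and 36.9% lower, and the counts of the transition zone list (15 genes) and the Cdc42 and Borg list (9 genes) are no result about these lists. Those with the largest differences included kif23 (188 FPKM at NF10.5 and 40.9 FPKM at NF24) among cytokinesis genes, the membrane linker ezr (8.03 and 74.5 FPKM) among actomyosin genes and tctn1 (22.3 and 6.78 FPKM) among transition zone genes. None of the 3 planar polarity effectors was called. Under median-of-ratios scaling 5 cytokinesis genes were lower and 0 higher (median -0.92). Of the 11771 genes compared, 3103 were lower and 3624 higher under that scaling (median -0.001).

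For the 3 septins of highest mean level, the genes with the most similar course were sought among 7526 genes with a symbol and at least 10 FPKM in at least 1 stage. The measure was the Euclidean distance between the log2(FPKM + 1) values of the 3 stages, each set centred on its mean. With 3 points per gene, many genes lie close to any course. Nearest to septin7 were cab39 (41.3, 46.3 and 54.9 FPKM, distance 0.011), lamtor2, ndfip2 and cnksr3. Nearest to septin10 were irs1 (8.09, 15.1 and 14.8 FPKM, distance 0.0097), rpl4, btbd7 and ephb1. Nearest to septin2 were eif2ak3 (16.7, 7.40 and 10.1 FPKM, distance 0.011), rogdi, the mitotic kinase gene aurkb (75.1, 34.4 and 45.9 FPKM, distance 0.013) and c9orf114.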

How the data were processed

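Animal cap RNA of 3 stages was described from 1 deposited table. The values are FPKM per RefSeq transcript, computed by the authors, in 3 stage columns, per the file headers. All nonzero values fell on steps of 0.01 over 3, with a tolerance of 0.1 step, so each is taken as the authors' mean of the 3 labelled replicates. Per the submitters' processing notes, STAR 2.4.2a and RSEM 1.3.0 were used; no settings are stated. The genome build is not given in the sources used here. Depth is unknown, which leaves no basis for intervals or floors. FPKM was summed over the transcripts of a gene, with no further scaling, and compared as log2(FPKM + 1) by a fixed rule of size. Of the rows, 19 repeat a transcript, none of them of a septin. The calling step was run on simulated data with planted changes past the limit or none, which checks the code and not the error of the values. The septins, the related gene lists, the rules and the alternatives were chosen with earlier results of these data known. Named genes are all septins and their transcripts, up to 3 members per list and direction with the largest called difference, and the nearest 4 genes to each of 3 septins; anln, cdc42, the planar polarity effectors and the markers named were added after their values were seen. List names absent from the table were matched through the RefSeq symbol of their transcripts. Alternatives were other constants, filters and scalings, the highest transcript, and repeated rows counted once. Sequences of the septins were not used here. Python 3.11.15 with pandas 2.3.3 and numpy 2.4.6 was used.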

Additional observations from a re-analysis of the deposited data

How the results depend on the processing

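The 11 septins were recounted under other settings. The number called higher from NF16 to NF24 was 0 in place of 1 with a constant of 5, median-of-ratios scaling and quantile normalization. Of all genes compared, 633 and 641 were higher with these 2 scalings, in place of 813. The number called higher between NF10.5 and NF24 was 5 in place of 3 under median-of-ratios scaling, where septin9 (1.05) and septin10 (1.297) passed the limit. Septin10 also passed it between NF10.5 and NF24 with TPM (1.006) and quantile normalization (1.11). In that comparison 3624 of all genes were higher with median-of-ratios scaling, 3417 with TPM and 3074 with quantile normalization, in place of 2984. The calls of septin5, septin6, septin8, septin11 and septin12 from NF10.5 to NF16 held with 2 other constants, 3 scalings and the highest transcript. The 2 other filters and repeated rows counted once could not change these calls. Filters leave the values as they are, and no septin row is repeated. No called septin value changed sign. Counting sept2-a as a member, an alternative chosen after seeing the data, could add no call. Its differences of 0.17, 0.44 and 0.61 were already known to lie below the limit. Leaving out transcripts below 1 FPKM at all stages could not change a leading transcript of the 9 septins compared. Each of their leaders reached 1 FPKM in at least 1 stage.

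The related lists moved more. They held 16 cytokinesis, 15 transition zone, 15 actomyosin, 9 Cdc42 and Borg and 3 planar polarity genes that were compared. For the first step, median-of-ratios scaling gave 1 cytokinesis gene higher and 6 lower (median -0.91), 2 planar polarity effectors higher (median 1.36), 1 transition zone gene lower and 1 actomyosin gene lower. Quantile normalization gave 2 planar polarity effectors higher (median 1.23) and 1 gene of the Cdc42 and Borg list higher. It also gave 1 transition zone gene lower and 1 actomyosin gene lower, and TPM gave 1 planar polarity effector higher. For the second step, transition zone genes lower numbered 2 with median-of-ratios scaling and 3 with quantile normalization, and actomyosin genes higher numbered 3 with TPM. Between NF10.5 and NF24, median-of-ratios scaling gave 5 cytokinesis genes lower (median -0.92) and 4 transition zone genes higher and 2 lower. It gave 1 gene of the Cdc42 and Borg list lower. Quantile normalization gave a cytokinesis median of -0.98, 2 transition zone genes lower and 1 gene of the Cdc42 and Borg list lower. The median of all genes moved too, in the first step by 0.54 with median-of-ratios scaling and 0.33 with quantile normalization. It moved by -0.12 and -0.10 in the second step and by 0.44 and 0.25 between NF10.5 and NF24. In that last comparison 3624 of all genes were higher and 3103 lower with the former scaling, and 3074 and 3752 with the latter. In the first step these counts were 3279 and 2854, and 2760 and 3494. With TPM they were 2829 and 4457. In the second step they were 633 and 785, and 641 and 790. With TPM they were 1227 and 626. How much of the list changes goes with these shifts was not tested.

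No paired analysis was possible because the table has 1 column per stage and no replicate numbers. Leaving out single replicates was not run, as the table holds none. Without depth, values below 1 FPKM, as for septin3, septin4 and septin5 at NF10.5, have an unknown error.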
